A study of Caenorhabditis elegans with 2 samples.

Results

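The 36 genes of the Caenorhabditis elegans mitochondrial genome, 12 protein-coding, 22 tRNA and 2 rRNA genes, were examined for peaks of a tagged nuclear hormone receptor. They were chosen by location alone, as every gene that the RefSeq annotation of build ce11 places on the 13794 bp mitochondrial chromosome, and made up 36 of 44795 annotated genes. The other 44759 genes are nuclear. Chromatin came from whole young adult hermaphrodites of strain OP465, genotype unc-119(tm4063) III; wgIs465, in which a stably expressed transgene encodes NHR-179 fused to GFP-FLAG at its C-terminus. Worms were taken 64 h after synchronization as starved L1 larvae, chromatin was sonicated, and tagged protein was precipitated with an anti-GFP antibody, per the samples' description. The antibody field of the labels reads nhr-179 instead, so the labels differ on the antibody's target. The labels give 2 biological replicates, with the numbers 2 and 3, and both share strain, stage and antibody, so they make up 1 group. Whole animals were used, so the cell types behind a peak cannot be told apart, and the transgene line is the single line studied.

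The data are peak lists from chromatin immunoprecipitation sequencing. On ce11 there are 4 lists, namely 1 for each replicate, a pooled list called on both together, and an optimal list. The optimal list is labelled as thresholded on the irreproducible discovery rate, which asks whether peaks hold similar ranks in both replicates. Here it equals the top of the pooled list by signal. A summit in it therefore need not have a partner in each replicate, and the ATP6 summit has none in replicate 2. Each peak has an interval, a summit inside it and a signal, which is the authors' own value for the peak, with scaling not given in the sources used here. Signal was used only to rank or describe peaks within a list. The lists hold no read counts, so sequencing depth is unknown and sets no interval here. With 1 group no comparison between conditions could be made, and all values below are descriptions without a test. The lists were called against a control alignment, per the deposited descriptions, but the control itself and an untagged strain were not analysed here. How far a mitochondrial peak reports bound NHR-179 was therefore not tested.

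As background, the mitochondrial genome is a small circular DNA inside the mitochondrion, present in many copies per cell. In C. elegans all of its genes are read from 1 strand, and tRNA genes lie between many of the longer genes. Its proteins are core subunits of the respiratory chain and of ATP synthase, and its rRNAs and tRNAs serve the mitochondrial ribosome. Nuclear hormone receptors are transcription factors with a zinc-finger DNA-binding domain, and the family is greatly expanded in C. elegans. They are known mainly for binding nuclear DNA. The files hold no measure of genome copies per cell, so signal per genome copy cannot be given.

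The 4 highest optimal summits lay in CYTB, COX3, ND5 and ND4, and the 101 bp around each is shown because the highest summits of both replicates lay in the same 4 genes. Sequences are the plus strand of ce11 from RefSeq, read 5′ to 3′, at chrM:4651-4751, chrM:6016-6116, chrM:12366-12466 and chrM:7082-7182, and capitals mark the 11 bases centred on the summit.
CYTB summit: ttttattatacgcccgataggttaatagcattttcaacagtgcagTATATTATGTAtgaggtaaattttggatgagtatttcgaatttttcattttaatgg
COX3 summit: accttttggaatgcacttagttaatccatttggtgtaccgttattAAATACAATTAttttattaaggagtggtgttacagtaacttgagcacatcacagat
ND5 summit: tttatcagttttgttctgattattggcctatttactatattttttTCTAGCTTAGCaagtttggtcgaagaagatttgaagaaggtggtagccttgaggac
ND4 summit: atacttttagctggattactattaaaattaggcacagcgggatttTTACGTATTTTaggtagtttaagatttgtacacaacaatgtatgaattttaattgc
Their GC content was 28.7%, 32.7%, 34.7% and 28.7%, in the order shown, and all lie inside coding sequence. The highest COX3 summits of replicates 2 and 3, at 6111 and 6139, were not among the capitals, and the second lay outside the window.

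Mitochondrial summits filled the top of the optimal list. Of its 256 peaks 23 were mitochondrial, or 8.98% (exact Clopper-Pearson 95% interval 5.78% to 13.2%, which covers counting error only). That calculation treats peaks as independent, although only 4 peak intervals hold the 23 mitochondrial summits. Their signal ran from 497.7 to 7171 with a median of 2219, whereas nuclear peaks had a median of 94.7 and a highest value of 328.9. All 23 mitochondrial summits thus ranked above all 233 nuclear ones. The pooled list of 9606 peaks held the same 23 mitochondrial summits with the same signal, because the optimal list is its top by signal, and it adds no separate evidence.

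Each replicate list gave the same picture at the top and differed at the lower end. Replicate 3 held 13745 peaks, and its 23 mitochondrial summits, with signal from 267.7 to 3722, all ranked above the highest nuclear signal of 155.7. Replicate 2 held 12866 peaks, and 20 of its 23 mitochondrial summits, or 87.0%, ranked above the highest nuclear signal of 183.7. The exceptions were its last summit in CYTB at 5109 (signal 26.0, rank 2112 of the list), its last summit in COX1 at 9354 (74.7, rank 51) and a summit in ND3 at 11682 (147.4, rank 23).

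**Figure D1:**
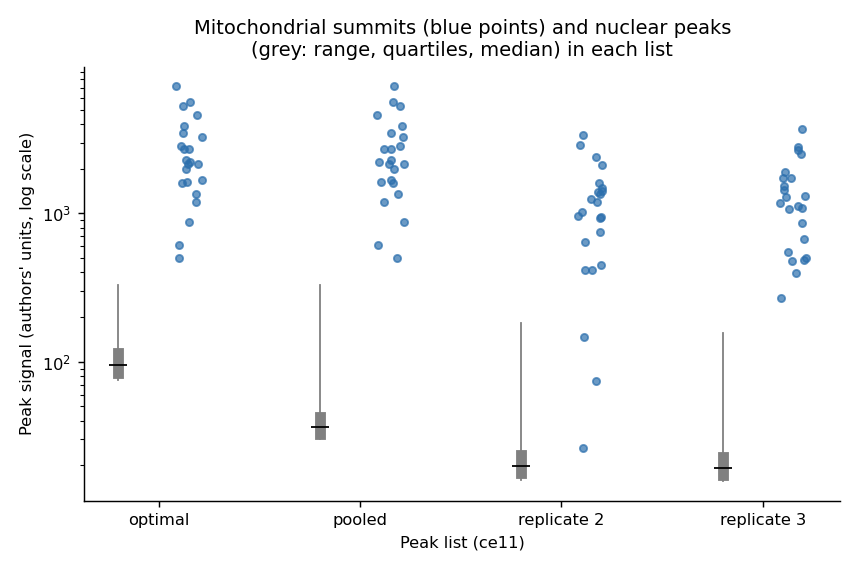
Signal of each mitochondrial summit in the optimal, pooled and replicate lists on a log axis, with the range (line), quartiles (box) and median (bar) of the nuclear peaks of the same list in grey. All 23 mitochondrial summits of the optimal list lie above the highest nuclear signal of 328.9, and in replicate 2 the lowest mitochondrial summit has a signal of 26.0.

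The q-value that the authors gave each peak did not separate mitochondrial from nuclear peaks at its limit. In the optimal list all 23 mitochondrial peaks had the highest −log10 q of 2.48, and 128 of 233 nuclear peaks shared it. In replicate 2 the CYTB summit at 5109 was the 1 of 23 below the limit.

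Summits fell in 14 of the 36 genes in the optimal list. These were 11 of 12 protein-coding genes, both rRNA genes and 1 of 22 tRNA genes. In the same list 0.503% of the 44759 nuclear genes held a summit, with 0.461% of nuclear protein-coding genes, 9.15% of nuclear tRNA genes and 0% of the 20 nuclear rRNA genes. Replicate 2 had summits in 13 mitochondrial genes beside 14.5% of nuclear genes, and replicate 3 in 14 beside 15.3%. Protein-coding genes took 19 of 23 optimal summits (82.6%) and 74.6% of the genome, rRNA genes 3 (13.0%) and 12.0% of it, and tRNA genes 1 (4.35%) and 8.98%. No summit in any list lay in the 613 bp outside genes, which are 4.44% of the genome.

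Longer genes held more summits. Across the 36 genes, which lie on 1 chromosome and share its reads and neighbouring peaks, Spearman's rho between gene length and number of summits was 0.86 in the optimal list, 0.76 in replicate 2 and 0.79 in replicate 3. Of these genes 22 are tRNA genes of 53 to 63 bp, and 1 of them held an optimal summit. The values of rho thus in part restate the difference between classes. Within genes, with each gene cut into 3 equal lengths, 7 optimal summits lay in the first, 8 in the middle and 8 in the last. Ranks below run from 1 for the highest to 23 for the lowest mitochondrial summit of a list.

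CYTB, which encodes cytochrome b of the ubiquinol-cytochrome c reductase, held the highest summit in every list. It stood at 4701 in the optimal list with a signal of 7171, at 4702 in replicate 2 with 3388 and at 4701 in replicate 3 with 3722. It was thus first in both replicates, 1 bp apart, and lay 197 bp from the gene's start at chrM:4504-5616. A second CYTB summit was far lower, at 4908 with rank 19 (signal 1353) in the optimal list and at 4904 in both replicates with ranks 16 and 20.

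The cytochrome c oxidase genes COX1, COX2 and COX3 encode the subunits at the core of the terminal oxidase of the respiratory chain. COX3 was near the top, with rank 2 at 6066 (5638) in the optimal list, rank 2 at 6111 (2882) in replicate 2 and rank 3 at 6139 (2683) in replicate 3. Its summit thus differed by 1 place and by 28 bp between replicates. The second COX3 summit had rank 5 at 6271 (3882), rank 7 at 6321 (1408) and rank 11 at 6344 (1295). COX2 held a single summit with rank 8 in all 3 of these lists, at 10194 (2841), 10230 (1397) and 10196 (1528).

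COX1, at 1578 bp the second longest gene, had only middle to low ranks. Its optimal summits had ranks 14 at 8266 (2134), 15 at 9147 (2002) and 22 at 8473 (616.0). The first of them had rank 10 at 8271 (1239) in replicate 2 and rank 16 at 8269 (865.8) in replicate 3. This summit thus stood higher in replicate 2 than in replicate 3, although its positions were 2 bp apart. The optimal summit at 9147 had rank 13 at 9148 (958.5) in replicate 2. In replicate 3 it had rank 14 at 9097 (1081) and was the highest in COX1. The last COX1 summit, at 9354, was present in replicate 2 alone.

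The 7 ND genes encode subunits of the NADH dehydrogenase, the entry enzyme of the respiratory chain, and spanned nearly the full range of ranks. ND5, the longest gene at 1584 bp, had rank 3 at 12416 (5270) in the optimal list, rank 3 at 12415 (2378) in replicate 2 and rank 2 at 12416 (2803) in replicate 3. ND4 had rank 4 in all 3 lists, at 7132 (4609), 7132 (2130) and 7133 (2494). Positions of these 2 genes differed by 1 bp between replicates. Their second summits were also high, with rank 6 at 7332 (3450.2) for ND4 and rank 9 at 12619 (2732) for ND5 in the optimal list.

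ND1 held 3 optimal summits and showed the largest shift between replicates. They had ranks 10 at 2155 (2708), 16 at 1844 (1683) and 17 at 2354 (1622). In replicate 2 its summits at 1826 (1027) and 2245 (951.3) had ranks 12 and 14, and in replicate 3 those at 1846 (674.6) and 2209 (1728) had ranks 17 and 7. The order of the pair was thus opposite in the replicates. ND2 had rank 12 at 3639 (2219) in the optimal list, rank 15 at 3615 (933.9) in replicate 2 and rank 10 at 3641 (1318) in replicate 3.

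By their highest summit, the short genes ND3 and ND6 were the lowest of the genes that held one in the optimal list and in replicate 3, whereas in replicate 2 l-rRNA stood below ND3. ND3, of 336 bp, had rank 20 at 11458 (1190.0) in the optimal list, rank 17 at 11455 (638.0) in replicate 2 and rank 18 at 11468 (550.7) in replicate 3. ND6, of 435 bp, had rank 21 at 154 (868.6) in the optimal list, rank 19 at 150 (415.2) and rank 19 at 134 (499.9). ND4L, the shortest protein-coding gene at 234 bp, held no summit in any list. Its nearest optimal summit was 220 bp away, and peak intervals covered all of it in the optimal list and in replicate 2 but 47.4% in replicate 3.

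ATP6 encodes subunit 6 of the membrane part of ATP synthase, the channel through which protons pass. Its summit had rank 13 at 3068 (2139) in the optimal list and rank 12 at 3075 (1180.3) in replicate 3, and replicate 2 had none in the gene. The interval of replicate 2 nevertheless covered all of ATP6. Besides ATP6 and ND4L, the other 10 protein-coding genes held a summit in every list.

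Of the rRNA genes, s-rRNA of the small ribosomal subunit stood higher than l-rRNA of the large one, although it is shorter (697 against 953 bp). Its first summit had rank 7 at 1002 (3282) in the optimal list, rank 5 at 1002 (1604) in replicate 2 and rank 6 at 1024 (1732) in replicate 3. Its second, at 1206 (497.7), was the lowest optimal summit, and replicate 2 lacked it. The l-rRNA summit had rank 18 at 11160 (1598), rank 18 at 11161 (446.1) and rank 15 at 11148 (1072).

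The tRNA genes, of 53 to 63 bp, were the class with the smallest share of genes holding a summit. No summit in any list lay in 20 of the 22. The other 2 are adjacent, and 1 summit region between ATP6 and ND2 moved from tRNA-Lys to tRNA-Leu(UUR) with the list. It stood at 3305 with rank 11 (2287) in the optimal list, 1 bp from the end of tRNA-Lys, and at 3313 (rank 11, 1184) and 3348 (rank 13, 1113) inside tRNA-Leu(UUR) in replicates 2 and 3. The 2 genes, at chrM:3244-3306 and chrM:3307-3361, are shown because the summit crosses their border. Each is the plus strand of ce11 from RefSeq, and capitals mark the summit bases, at 3305 in tRNA-Lys and at 3313 and 3348 in tRNA-Leu(UUR).
tRNA-Lys: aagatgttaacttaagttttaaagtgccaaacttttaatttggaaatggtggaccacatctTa
tRNA-Leu(UUR): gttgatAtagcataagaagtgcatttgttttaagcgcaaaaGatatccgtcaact
Which of the 2 tRNA genes holds this summit thus rests on 1 to 2 bp in the optimal list, whereas every list placed it in a tRNA gene. Of all positions on the mitochondrial genome 22.8% lie within 100 bp of a tRNA gene, beside 3 of 23 optimal summits (13.0%), 4 in replicate 2 (17.4%) and 3 in replicate 3.

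**Figure D2:**
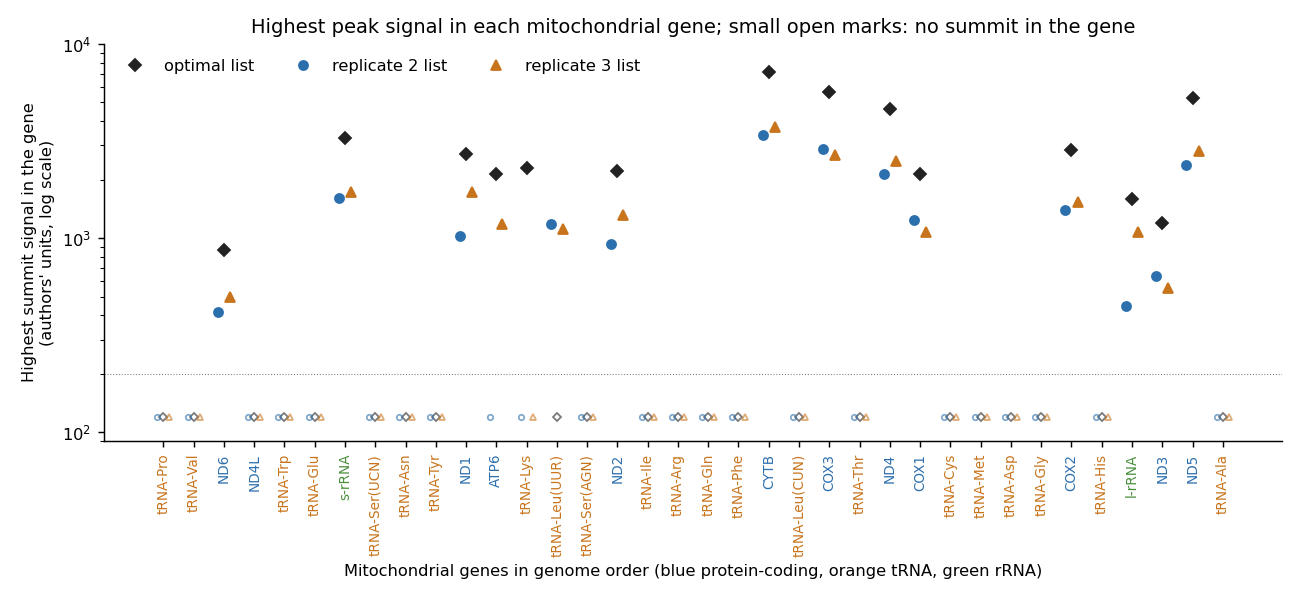
Highest summit signal (log axis, the authors' units) in each of the 36 mitochondrial genes in genome order, for the optimal list and both replicates, with filled marks for genes that hold a summit and small open marks below the dotted line for genes that hold none. CYTB holds the highest summit in each list, and ND4L and 20 of the 22 tRNA genes hold none.

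The replicates matched closely in where summits lay. Of the 23 mitochondrial summits in replicate 2, 20 (87.0%) had a mutual nearest partner within 100 bp in replicate 3, and all 20 pairs lay in the same gene. Among nuclear summits of replicate 2 17.9% had such a partner, though the lists include background regions beside peaks. Neighbouring summits of replicate 3 were a median of 491.5 bp apart on the mitochondrial genome and 4153 bp on nuclear chromosomes. A partner within 100 bp is easier to meet where summits are dense, so the 2 shares are not on an equal footing. Between partners the median distance was 14.5 bp (range 0 to 51) for mitochondrial pairs and 39 bp for nuclear pairs. In 7 pairs the distance was at most 5 bp, namely both CYTB pairs, both ND4 pairs, the first 2 COX1 pairs and the first ND5 pair. The replicate 3 summit was downstream in 10 pairs, upstream in 9 and at the same base in 1.

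The order of the 20 matched summits was also alike. Spearman's rho of their signal between replicates was 0.88 (n = 20 pairs, which share 1 small genome and adjoining intervals), and 0.37 over 2296 matched nuclear pairs. The nuclear pairs came from full lists with a narrow range of signal, with quartiles of 17.7 and 23.6 in replicate 2. The 2 values of rho are therefore not on an equal footing. Counted among the 20 matched mitochondrial summits, 13 differed by at most 2 places, of which 7 held the same place in both replicates, and the other 7 differed by more. The largest shift was the second ND1 summit, from place 14 in replicate 2 to 7 in replicate 3. ND2 went from 15 to 10 and l-rRNA from 18 to 14, both higher in replicate 3. The first COX1 summit went from 10 to 15, the second COX3 summit from 7 to 11, the first ND1 summit from 12 to 16 and the second CYTB summit from 16 to 19, all lower in replicate 3.

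Unmatched summits lay at different ranks in the 2 replicates. Those of replicate 2 were its 3 lowest, in CYTB at 5109, COX1 at 9354 and ND3 at 11682. Those of replicate 3 included ATP6 at 3075 with rank 12, besides s-rRNA at 1226 with rank 21 (478.6) and ND1 at 2412 with rank 22 (393.3). Taking the highest summit of each gene, the 13 genes with a summit in both replicates had a rho of 0.92, and 11 kept their place to within 2. The exceptions were ND1, in place 9 in replicate 2 and 6 in replicate 3, and COX1, in place 7 and 10.

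**Figure D3:**
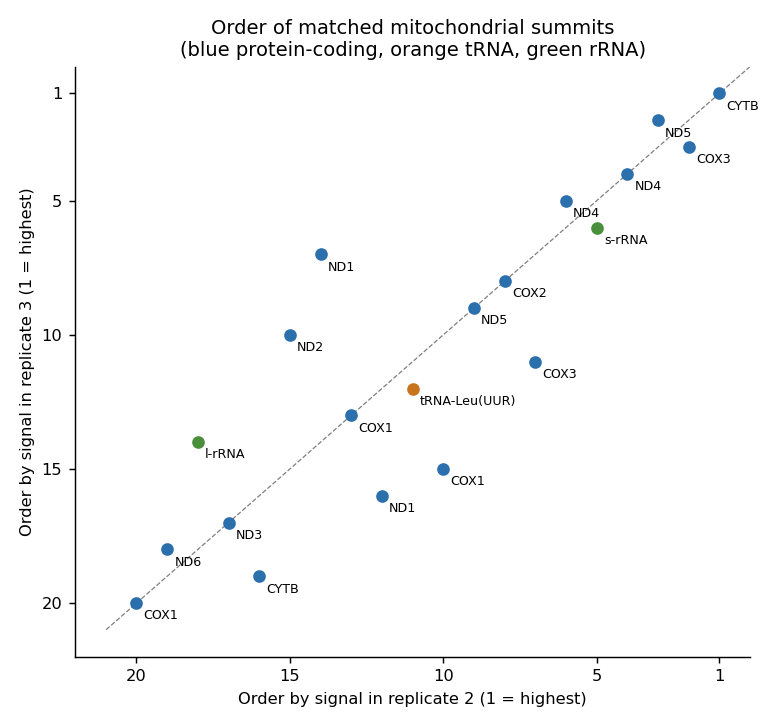
Place of each of the 20 matched mitochondrial summits in replicate 2 against replicate 3, with 1 the highest signal at the upper right, and a dashed line at equal place. CYTB is at place 1 and ND4 at place 4 in both, and the second ND1 summit moves most, from 14 to 7.

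Many mitochondrial summits came in pairs about 200 bp apart within a gene. Neighbouring optimal summits were 199 to 1158 bp apart with a median of 486 bp, and 7 of the 22 distances lay between 190 and 230 bp. These pairs were in s-rRNA, ND1, CYTB, COX3, ND4, COX1 and ND5. Replicate 2 had 8 such pairs and replicate 3 had 7, and the pairs of CYTB, COX3, ND4, COX1 and ND5 occurred in all of these lists. Among nuclear neighbours 5 of 227 (2.20%) were that far apart in the optimal list, 605 (4.71%) in replicate 2 and 543 (3.96%) in replicate 3. None in any list was closer than 199 bp. Nuclear summits were much sparser, with a median distance between neighbours of 219207 bp, 4291 bp and 4153 bp in these lists. The shares therefore cannot show whether the spacing is particular to mitochondrial summits.

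In every mitochondrial pair the summit with the lower coordinate, which is the upstream one since all genes lie on the plus strand, had the higher signal. This held in 7 of 7 optimal pairs, 8 of 8 in replicate 2 and 7 of 7 in replicate 3. Most nuclear pairs at the same distance, where genes lie on either strand, also had the higher signal at the lower coordinate. Counts were 5 of 5 in the optimal list, 545 of 605 (90.1%) in replicate 2 and 477 of 543 (87.8%) in replicate 3. A higher signal at the lower coordinate was thus not particular to mitochondrial pairs. The ratio of higher to lower signal in the optimal list ran from 1.34 in ND4 to 6.59 in s-rRNA, with a median of 1.93. The CYTB pair had a ratio of 5.30, 4.54 in replicate 2 and 7.63 in replicate 3. How the caller's settings bear on this spacing, or on which summit of a pair is higher, was not tested.

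**Figure D4:**
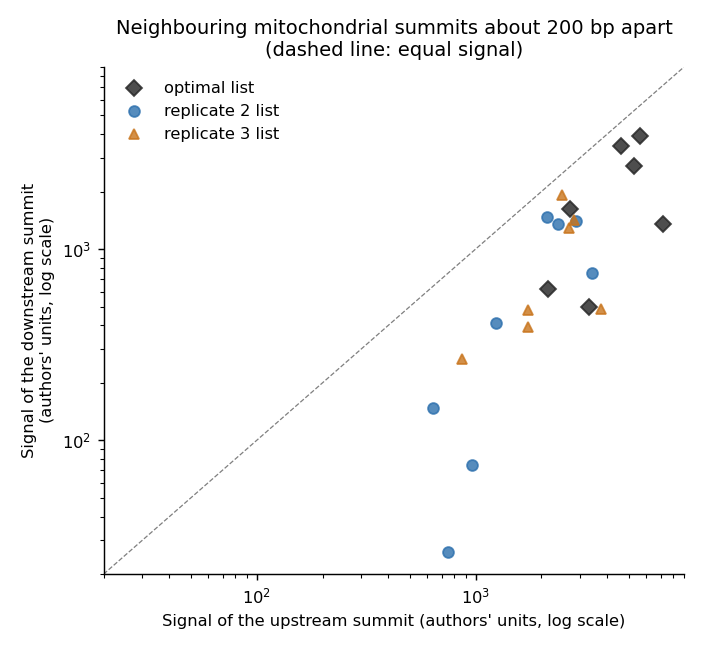
Signal of the downstream against the upstream member of each mitochondrial summit pair 190 to 230 bp apart, both on log axes in the authors' units, with a dashed line at equal signal. All points lie below the line, so the upstream member is the higher in every pair, 7 in the optimal list, 8 in replicate 2 and 7 in replicate 3.

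Peak intervals covered almost the whole mitochondrial genome. The 23 optimal summits shared 4 intervals, at chrM:23-404 with 1 summit, chrM:544-6685 with 12, chrM:6753-10619 with 6 and chrM:10597-13030 with 4. No nuclear interval exceeded 444 bp, which was also the median nuclear width in the optimal list. How the caller sets interval widths was not tested. The mitochondrial intervals of the optimal list covered 12802 bp or 92.8%, against 93.5% in replicate 2 and 88.03% in replicate 3. In the optimal list 31 genes were covered in full, with 30 in replicate 2 and 28 in replicate 3. Coverage was thus near complete in each list, and lowest in replicate 3.

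The uncovered stretches of the optimal list were chrM:1-22 in tRNA-Pro, chrM:405-543 in ND6 (139 bp), chrM:6686-6752 in ND4 (67 bp) and chrM:13031-13794 (764 bp). Both replicates left chrM:1-16, chrM:455-544, chrM:6698-6728 and chrM:13044-13794 uncovered, and each overlaps 1 of the uncovered stretches of the optimal list. Stretches were counted along the linear sequence. On the circular molecule the stretch that ends at 13794 adjoins the one that starts at 1, in every list, so these 2 are a single uncovered stretch. Replicate 3 had wider gaps, of 442 bp across ND6 and ND4L and 280 bp in ND4, and its own gap of 55 bp in ND2. A gap of 9 bp in replicate 2 and 13 bp in replicate 3 fell in l-rRNA. Among the tRNA genes, tRNA-Ala was wholly uncovered in every list and tRNA-Pro in replicate 3.

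The longest uncovered stretch, counted up to 13794, held the end of ND5, all of tRNA-Ala and the longest stretch outside genes, chrM:13329-13794 of 466 bp. It was covered at 0% in every list. The other stretch outside genes of more than 10 bp, chrM:7736-7844 of 109 bp between ND4 and COX1, was fully covered in every list and held no summit. GC content was 6.87% in the first and 19.3% in the second. Across the genome GC was 24.7% in covered and 11.4% in uncovered sequence for the optimal list, 24.7% and 10.9% for replicate 2, and 25.1% and 14.3% for replicate 3.

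Words of 32 bases repeated within the mitochondrial genome were found in this uncovered stretch and nowhere else on it. Of the 13794 words of 32 bases on the mitochondrial genome 192 occur more than once in it, and all lay in the uncovered stretch, as 41.2% of the words of the 466 bp outside genes. Covered sequence held 0 of them. A unit of 43 bp was repeated 4.86 times from 13406 to 13614. The first 300 bases of the stretch outside genes, chrM:13329-13628, are shown because they hold the repeat, and capitals mark the 255 bases that belong to a word present more than once in the mitochondrial genome (plus strand, ce11, RefSeq).
Stretch outside genes: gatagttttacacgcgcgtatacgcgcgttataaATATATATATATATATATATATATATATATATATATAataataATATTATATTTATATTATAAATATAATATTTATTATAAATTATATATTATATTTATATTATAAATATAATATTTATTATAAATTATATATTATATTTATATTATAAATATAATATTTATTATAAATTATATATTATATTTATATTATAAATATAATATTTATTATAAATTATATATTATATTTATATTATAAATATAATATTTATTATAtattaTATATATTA
Words also present in the nuclear genome were few, 19 in all or 0.138%, with 16 in the uncovered stretch and 3 in CYTB. Uncovered sequence thus had the lower GC content in each list. Repeated words made up 25.1% of the words of the longest uncovered stretch, and the other uncovered stretches of the optimal list held none. The part of GC content and repeats in the lack of coverage was not tested.

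Summits lay in sequence of higher GC content than the mitochondrial genome at large. The 101 bp windows around optimal summits had 30.7 ± 4.73% GC (SD, n = 23 summits), from 19.8% at ND6 to 39.6%, while all windows had a mean and median of 23.8%. In replicate 2 the value was 28.5 ± 5.36% and in replicate 3 it was 29.5 ± 4.30%. Of 23 summits 21 in the optimal list, 18 in replicate 2 and 20 in replicate 3 lay above the median window. Within the summits GC content was weakly related to signal, with a rho of 0.21, 0.26 and 0.03 in the 3 lists over 23 summits of 1 genome. The part of base composition in the summits was not tested.

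**Figure D5:**
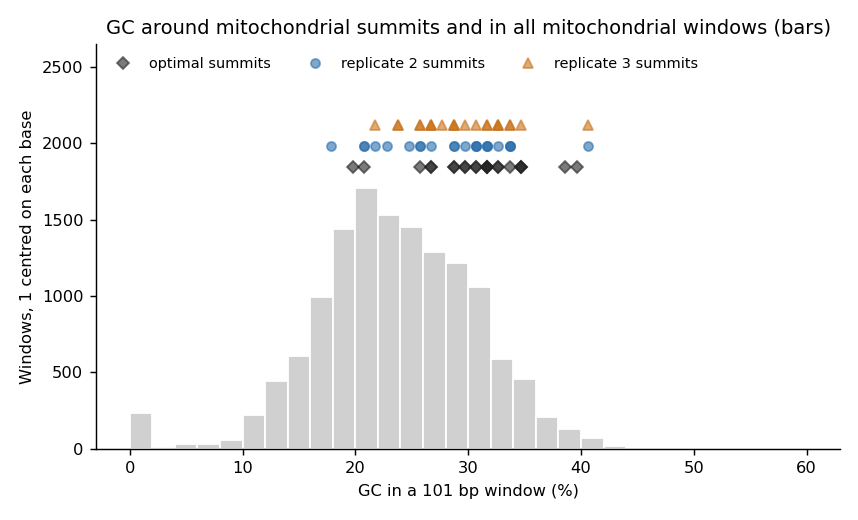
Distribution of GC content over all 101 bp windows of the mitochondrial genome, as bars, with a mark for the window of each optimal and replicate summit set above them at arbitrary height. Of 23 optimal summits 21 lie above the median window of 23.8%.

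Nuclear hormone receptors are known to bind a core of 6 bases, and 3 such words were searched on both strands of the 101 bp windows. AGGTCA has 2 sites on the mitochondrial genome, and 0 of 23 optimal windows held it, beside 1.39% of all windows. GGGTCA also has 2 sites (1.39% of all windows) and was in the ND6 window, around the optimal summit of rank 21, in every list. AGTTCA has 5 sites (3.48% of all windows) and was in the ND1 window at 2354 in the optimal list, in none in replicate 2 and in those of tRNA-Leu(UUR) and COX1 at 8469 in replicate 3. None of the 3 words was in the windows of the 4 highest optimal summits. A match is a description of sequence, and nothing follows from it about binding.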

How the data were processed

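Peak lists were analysed for 2 replicates of anti-GFP ChIP-seq. The authors deposited 8 lists, 4 each on ce10 and ce11, with a signal per peak and a −log10 q value. The descriptions deposited with the files say that a control alignment entered the peak calls, and that all but the optimal lists also hold background regions. The aligner, caller, versions, filters and signal scaling are not given in the sources used here. Genes, spans and sequence came from RefSeq for ce11 (WBcel235), with Ensembl release 115 as an alternative. Summits were the interval start plus the offset, counted from 1, and belonged to the gene holding them. Replicate summits were paired as mutual nearest within 100 bp. GC content and words used 50 bp on either side. Values were described without tests, in Python 3.11.15 with numpy 2.4.6, pandas 2.3.3, scipy 1.17.1 and matplotlib 3.10.9, and the pairing was tested on simulated data. The simulated summits lay farther apart than the median mitochondrial spacing, so pairing among close neighbours was not covered. Ranks are within a list. Named genes were those holding a summit, the extremes of each class and those in uncovered stretches. The members, words and lists were chosen with earlier results of these data known. Lists on ce10 gave counts and ranks only. Alternatives were other lists, thresholds, distances and windows. Ensembl spans and the GC values of each replicate were added after seeing the data.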

Additional observations from a re-analysis of the deposited data

How the results depend on the processing

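Of 39 alternatives 29 were counted as leaving their result the same, 10 as moving it and 0 as reversing it. The limit was not equal for all results: a fall from 100% to 87.0% counted as the same, and a rise in rho from 0.88 to 0.89 as moved. Alternatives that used the pooled list were among the 29. That list holds the same mitochondrial summits as the optimal list, so their outcome was fixed in advance. Among the upper 50% of the optimal list 18.0% of peaks were mitochondrial, and the upper 50% of mitochondrial summits (11) lay in 8 genes. The share of 18.0% was also fixed in advance, since every mitochondrial peak ranks above every nuclear one there. Pairing within 20 bp left 12 pairs. The rank correlation was 0.89 within 50 bp (19 pairs) and 0.86 without the highest summit. Mean GC content was 32.8% for 25 bp and 28.2% for 100 bp on either side. With either replicate left out, the mitochondrial share was 8.59% to 8.98% of the 256 highest peaks of the replicate kept, a size taken from the optimal list, and 0.167% to 0.179% of its whole list. In the same setting the share of summits above the highest nuclear signal was 87.0% to 100%, genes with a summit 13 to 14, coverage 88.03% to 93.5%, mean GC 28.5% to 29.5%, and summits 19 to 20 in protein-coding genes, 2 to 3 in rRNA genes, 1 in tRNA genes and 0 outside genes. A summit within 50 bp sufficed in 16 genes, and Ensembl spans gave 14. The ce10 optimal list had 11.1% mitochondrial peaks. No paired analysis was possible because there is 1 group. Without counts the depth is unknown, so whether the summits found in only 1 replicate were missed or absent in the other cannot be told apart. The cause of each change was not tested.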
